A study of Mus musculus with 12 samples.

Results

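Transcripts of 7 matrix metalloproteinases (Mmp2, Mmp3, Mmp8, Mmp9, Mmp12, Mmp14 and Mmp19) and 3 of their tissue inhibitors (Timp1, Timp2 and Timp3) were followed in mouse adipose tissue with and without a scald burn. The 10 genes were taken by name, and all 10 were found among the 27179 Entrez identifiers that both count tables list. Tissue came from C57BL/6J mice of genotype WT, with 3 libraries in each of 4 groups, all labelled day 7. Adult control and Aged control mice were untreated. Adult burn mice had a scald over 30% of the body surface and Aged burn mice over 20%, made in water at 98 °C by 10 s on the back and, for the larger adult burn, 2 s on the belly. The labels' protocol also names buprenorphine for pain. Depot, sex and age in weeks: none of these is stated in the sources used here. Adult and aged libraries sit in separate tables, so age, table and, among burned mice, burn size cannot be told apart. The labels number the libraries without tying each to a separate mouse, and p-values reflect only the spread among libraries.

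Matrix metalloproteinases are zinc-dependent enzymes that cut collagens, elastin, fibronectin and other proteins outside the cell. They are made as inactive precursors, are activated by other proteinases, and are held in check by the tissue inhibitors of metalloproteinases, which bind the active site. In fat, fibroblasts and stromal progenitors are a main source of some of these enzymes, and neutrophils and macrophages that enter injured tissue bring others. The genes were therefore described by role, as enzymes made largely by stromal cells (Mmp2, Mmp3, Mmp14 and Mmp19), enzymes best known from leukocytes (Mmp8, Mmp9 and Mmp12) and inhibitors. In whole tissue, more cells of a type and more RNA per cell cannot be told apart.

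The 10 genes lie on 7 chromosomes. Mmp3, Mmp8 and Mmp12 share a cluster on chromosome 9, where Mmp12 spans chr9:7344397-7360461, Mmp3 spans chr9:7445822-7455975 and Mmp8 spans chr9:7558429-7568486 (RefSeq, GRCm38.p6). Mmp2 lies at chr8:92827290-92853421, Mmp9 at chr2:164940326-164955850, Mmp14 at chr14:54431598-54442456 and Mmp19 at chr10:128790910-128800827. Timp1 lies at chrX:20870166-20874737, Timp2 at chr11:118301061-118355411 and Timp3 at chr10:86300412-86349505. Reads were counted over whole genes, and whether the counting used the strand is not stated. Timp1 overlaps Syn1 on the opposite strand, Timp3 overlaps Syn3 and Mmp19 overlaps Tmem198b in the same way, so reads in the shared stretches could have been assigned to either gene.

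Promoter windows of 250 bases before to 50 bases after an annotated start were at hand for 7 of the 10 genes (RefSeq, GRCm38.p6; Mmp12 has a pair of starts) and not for Mmp2, Mmp9 and Mmp19. The AP-1 motif, TGANTCA on either strand, is the classical response element of inducible metalloproteinase genes. Its letters stood in 2 of these 7 genes, Mmp3 and Mmp12, and in 7.81% of all 32851 windows. The PEA3 motif AGGAAG (either strand) stood in 6 of the 7 and in 35.4% of all windows. The TATA box letters TATAAA stood in 3 of the 7 (Mmp3, Mmp8 and Mmp12) and in 13.6% of all. Their left ends lay at -7 in Mmp3, at -3 in Mmp8 (other strand) and at 5 at the second start of Mmp12. All positions are relative to the annotated start, and whether that start is the one used in this tissue was not tested. None of the 3 motifs contains another. The last 120 bases before the start are shown for Mmp3 (chr9:7445702-7445821, plus strand) and for the second start of Mmp12 (chr9:7347254-7347373, plus strand), because these neighbours in the cluster both hold the AP-1 letters, in capitals. Those of Timp1 (chrX:20870046-20870165, plus strand) are shown because Timp1 gave the steepest response among the inhibitors, and there the capitals mark PEA3.
Mmp3: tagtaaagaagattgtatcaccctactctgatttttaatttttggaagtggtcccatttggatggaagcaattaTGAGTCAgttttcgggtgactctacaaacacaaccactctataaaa
Mmp12: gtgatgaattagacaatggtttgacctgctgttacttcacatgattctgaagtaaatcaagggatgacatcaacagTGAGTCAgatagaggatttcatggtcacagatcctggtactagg
Timp1: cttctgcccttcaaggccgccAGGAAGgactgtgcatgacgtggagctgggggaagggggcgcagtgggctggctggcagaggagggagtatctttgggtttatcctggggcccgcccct
In Mmp3 the AP-1 letters TGAGTCA begin 46 bases before the start (position -46) and in Mmp12 44 bases before it (position -44), so the same 7 letters sit at nearly the same distance. A match of letters describes the sequence only.

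The libraries held 25231506 to 32236330 counts in adult mice and 31846557 to 46531070 in aged mice. Values below are CPM (read counts relative to library size) scaled by TMM over the 12 libraries, with group values as mean ± SD, n = 3. Adipocyte markers (8 genes, none at 0) summed to 18080 to 44346 CPM in Adult control, 42176 to 43042 in Adult burn, 40465 to 43066 in Aged control and 10473 to 28645 CPM in Aged burn libraries. Some libraries stood apart. Adult control 1 was high in B cell markers (1293 CPM against 4.16 to 9.93 in the other adult controls) and T cell markers (501 against 6.77 and 8.27 CPM). The same library was low in adipocyte markers (18080 against 42750 and 44346 CPM). Adult burn 1 was high in skeletal muscle markers (2585 against 9.96 and 43 CPM), and Aged burn 2 in neutrophil markers (1841 against 28.6 and 39.6 CPM).

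Burn in aged mice went with higher levels of 5 of the 10 transcripts and a lower level of none, by the test across all genes (edgeR quasi-likelihood F test, Benjamini-Hochberg adjusted p under 0.05). Across all genes tested, 16.7% were called, 13.7% higher and 3.03% lower. The 5 were Mmp8, Mmp12, Mmp19, Timp1 and Timp2, so each role had at least 1 called gene. The median log2 fold change of the 10 was 1.56, beside -0.01 over all 15132 genes tested. It was 1.21 for the stromal enzymes, 3.65 for the leukocyte enzymes and 0.92 for the inhibitors. The last 2 medians, over 3 genes each, are the values of Mmp12 and Timp2, and the inhibitor Timp3 was at -1.30. The values of burned and control libraries did not overlap for 7 genes that were higher and 1, Timp3, that was lower, where 50.6% of all genes tested did not overlap (26.3% higher and 24.3% lower).

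Cell type markers also differed between the aged groups. The adipocyte sum was lower in every Aged burn library than in any Aged control, with a median log2 difference of -1.04 over the 8 markers and 0 called by edgeR. Markers of dividing cells (6 genes, none at 0) summed to 5.06 to 9.97 CPM in Aged control and to 369, 339 and 182 CPM in Aged burn libraries, with 6 of 6 called higher and a median log2 difference of 5.41. B cell markers (6 genes, none at 0) summed to 2.51 to 4.28 CPM in Aged control and to 15.4 to 38.2 CPM in Aged burn libraries, with 3 of 6 called higher. The part of these markers in the levels of the 10 genes was not tested.

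**Figure D1:**
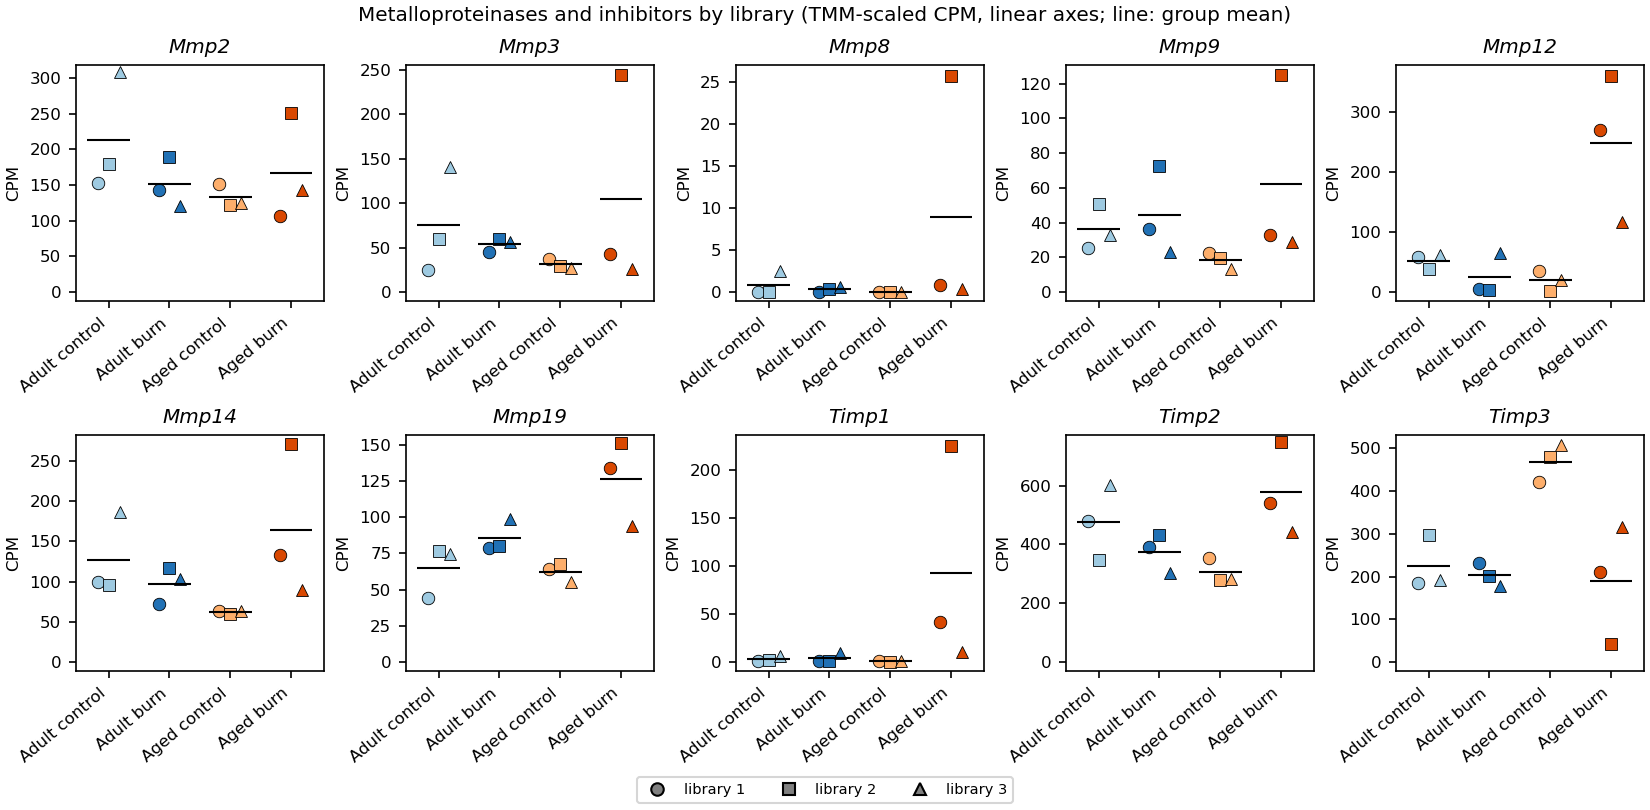
Level of each gene in each of the 12 libraries, in TMM-scaled CPM on linear axes; each symbol is 1 library and the line is the group mean. Timp1 and Mmp12 stand highest in the 3 Aged burn libraries, Timp3 stands highest in the 3 Aged control libraries, and Mmp8 reaches 25.7 CPM in Aged burn 2.

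Among the inhibitors, Timp1 is the inducible form, and it also acts as a growth and survival signal. Timp1 was at 1.7, 0.764 and 1.22 CPM in the Aged control libraries and at 42.3, 225 and 10.9 CPM in the Aged burn libraries. Every burned library lay above every control, and Aged burn 2 was far above the other 2. Timp1 rose by 6.25 on the log2 scale (SE 1.23, edgeR adjusted p = 0.0228), from 1.23 ± 0.467 to 92.8 ± 116 CPM. Without Aged burn 2 the rise was 4.46 with an edgeR adjusted p of 0.00318. Syn1, the overlapping gene on the other strand, was at 0.851 to 1.24 CPM in Aged control and at 10.1, 12.3 and 5.89 CPM in Aged burn libraries. Its part in the counts of Timp1 was not tested.

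Timp2 is the most evenly made inhibitor and, with membrane-bound Mmp14, also takes part in activating Mmp2. Timp2 was at 354, 280 and 283 CPM in Aged control and at 542, 747 and 444 CPM in Aged burn libraries. The groups did not overlap. The rise was 0.92 on the log2 scale (SE 0.25, edgeR adjusted p = 0.04995), which sits at the threshold.

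Timp3 differs from the other inhibitors in that it binds to the matrix and also blocks ADAM proteinases such as Adam17. Timp3 was at 421, 478 and 506 CPM in Aged control and at 211, 41.9 and 316 CPM in Aged burn libraries. All burned libraries were below all controls, with Aged burn 2 the lowest. The log2 difference of -1.30 (SE 0.64) was not past the threshold (edgeR adjusted p = 0.177). Without Aged burn 2 it was -0.83 with an edgeR adjusted p of 0.0302, so the smaller difference passed. Overlapping Syn3 was at 1.81, 1.99 and 1.79 CPM in Aged control and at 0.581, 0.313 and 1.34 CPM in Aged burn libraries. Over all libraries Syn3 lay between 0.313 and 1.99 CPM, and its part in the counts of Timp3 was not tested.

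The makeup of the 3 inhibitors therefore differed, as CPM divided by exon length in kb, which makes levels of different genes comparable. In Aged control libraries Timp3 made up 54.3 ± 5.63% of the summed inhibitor transcripts, Timp2 45 ± 5.4% and Timp1 0.755 ± 0.271%. In Aged burn libraries Timp1 made up 20.1, 54.8 and 6.2%, and Timp3 18.7, 1.91 and 33.7%. Each Aged burn library thus had a larger Timp1 share and a smaller Timp3 share than any Aged control, and in Aged burn 2 Timp1 was the most abundant of the 3. The sum of the 3 was 187, 177 and 185 CPM per kb in Aged control and 239, 465 and 199 in Aged burn libraries. In adult mice Timp2 was the most abundant inhibitor in both groups, with 70.8 ± 10.3% in Adult control and 67.6 ± 4.9% in Adult burn, and Timp1 was at 2 ± 1.33% and 3.45 ± 4.25%. These shares are descriptions and were not tested.

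**Figure D2:**
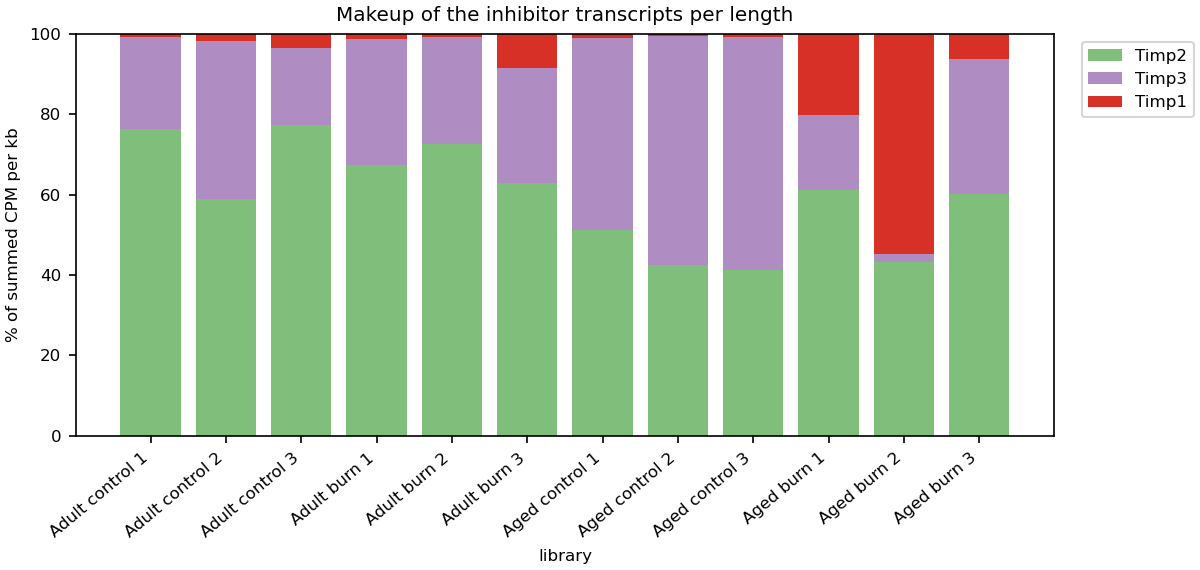
Share of Timp1, Timp2 and Timp3 in the summed inhibitor transcripts of each library, in percent of CPM per kb of exon. Timp1 takes 54.8% in Aged burn 2, 20.1% in Aged burn 1 and 6.2% in Aged burn 3, and at most 1.03% in the Aged control libraries.

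Among the leukocyte enzymes, Mmp12 is the elastase of macrophages. Mmp12 was at 36.1, 2.73 and 21 CPM in Aged control and at 270, 360 and 117 CPM in Aged burn libraries. The lowest burned library was above the highest control. The rise was 3.65 on the log2 scale (SE 0.93, edgeR adjusted p = 0.0444), from 19.9 ± 16.7 to 249 ± 123 CPM, and it was 3.29 without Aged burn 2 (edgeR adjusted p = 0.036). The share of Mmp12 in the summed transcripts of the 7 enzymes, per kb, was 0.706 to 7.58% in Aged control and 19.2 to 31.8% in Aged burn libraries. Macrophage markers moved with it: 10 of 12 were called higher in Aged burn, and their summed level was 543 to 964 CPM in Aged control, 3303 to 16192 in Aged burn, 994 to 2750 in Adult control and 956 to 2112 CPM in Adult burn libraries, with none of the 12 at 0 in any group. Their part in the level of Mmp12 was not tested.

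Mmp8 is the collagenase stored in neutrophil granules. Mmp8 had 2, 0 and 0 reads in the Aged control libraries and 32, 987 and 14 reads in the Aged burn libraries, which is 0.0192 ± 0.0332 against 8.97 ± 14.5 CPM. Most of the burned reads therefore came from Aged burn 2. The call rested on an edgeR adjusted p of 0.04995, and the fitted log2 value of 8.87 (SE 2.38) depends on how near-zero counts are handled and is no bound. As a ratio of scaled reads, Aged burn was 574 times Aged control (95% interval 158 to 4743, counting error only), and 38.5 times when Aged burn 2 was left out (10.1 to 328). Without Aged burn 2 the edgeR adjusted p was 0.0124. DESeq2 gave Mmp8 no adjusted p in this comparison.

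Neutrophil markers (13 genes) moved with Mmp8. Their sum was 5.43 to 8.9 CPM in Aged control, where Ly6g, Camp and Il1f9 were at 0 reads in every library. It was 39.6, 1841 and 28.6 CPM in Aged burn 1, 2 and 3. In these, 2, 0 and 4 of the 13 markers had no read, against 4, 3 and 6 in Aged control 1, 2 and 3. Of the 6 markers that were tested in aged mice, 2 were called higher. In adult mice the sum was 5.35 to 175 CPM in Adult control and 6.48 to 37.2 CPM in Adult burn libraries. Adult control 3 was the highest adult library for both the markers and Mmp8, with 66 of the 70 Mmp8 reads of its group. The part of neutrophils in the level of Mmp8 was not tested.

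Mmp9, a gelatinase made by neutrophils, macrophages and other cells, was at 22.8, 19.6 and 13.1 CPM in Aged control and at 32.8, 125 and 28.7 CPM in Aged burn libraries. The groups did not overlap, with Aged burn 2 standing apart. The log2 difference of 1.76 (SE 0.61) missed the threshold with an edgeR adjusted p of 0.0912, and it was 0.74 (edgeR adjusted p = 0.0606) without Aged burn 2. In adult mice Mmp9 did not follow the neutrophil markers: Adult burn 2 had the most Mmp9 (72.5 CPM) at a marker sum of 28.1 CPM, and Adult control 3 had 33 CPM at a marker sum of 175.

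**Figure D3:**
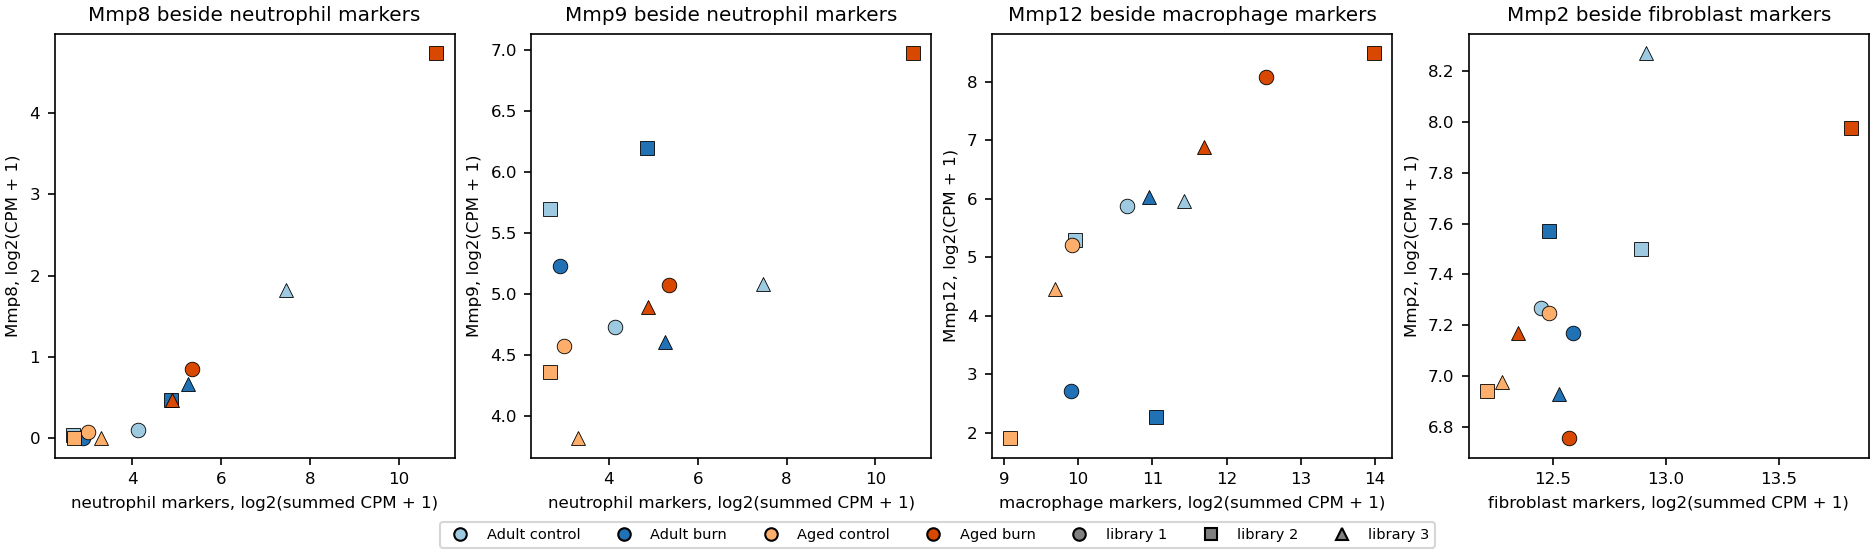
Level of a metalloproteinase against the summed level of cell type markers in each of the 12 libraries, as log2(CPM + 1); colour gives the group and shape the library number. Mmp8 stands highest in Aged burn 2, whose neutrophil markers sum to 1841 CPM, and then in Adult control 3 with 175 CPM, while Mmp2 is higher in Adult control 3 (308 CPM) than in Aged burn 2 (251 CPM), where fibroblast markers are highest.

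Among the stromal enzymes, Mmp19 was the 1 called gene. Mmp19, which cuts basement membrane proteins, was at 64.6, 67.4 and 55.5 CPM in Aged control and at 134, 151 and 93.6 CPM in Aged burn libraries. The 3 burned libraries were all above the 3 controls and close together. It rose by 1.01 on the log2 scale (SE 0.20, edgeR adjusted p = 0.0229), the smallest standard error among the 10 genes in this comparison. Tmem198b, which overlaps it, was at 9.35 to 15.2 CPM over all libraries.

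Mmp14 is the membrane-anchored collagenase that activates Mmp2 at the cell surface. Mmp14 was at 63.8, 60 and 64.1 CPM in Aged control and at 133, 271 and 89.9 CPM in Aged burn libraries. The groups did not overlap and the controls lay within a narrow range. The log2 difference of 1.40 (SE 0.39) narrowly missed the threshold (edgeR adjusted p = 0.0563). It was called without Aged burn 2 (0.84, edgeR adjusted p = 0.0157) and without Aged burn 3 (1.69, edgeR adjusted p = 0.012). It was not called without Aged burn 1 (1.53, edgeR adjusted p = 0.104). Nor was it without Aged control 1, 2 or 3 (edgeR adjusted p = 0.165, 0.181 and 0.165). Its share of the summed enzyme transcripts per kb stayed at 18.9 to 23.2% in Aged control and 20.3 to 22% in Aged burn libraries.

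Mmp2, the gelatinase that stromal cells make at rest, was at 151, 122 and 125 CPM in Aged control and at 107, 251 and 143 CPM in Aged burn libraries. The groups overlapped. The log2 difference was 0.33 (SE 0.32, edgeR adjusted p = 0.455), and it was -0.09 without Aged burn 2. Its share of the summed enzyme transcripts per kb was 37.5 to 38.1% in Aged control and 14.9 to 28.3% in Aged burn libraries, while the sum itself went from 130, 106 and 106 to 233, 514 and 164 CPM per kb.

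Mmp3, or stromelysin 1, which also activates other metalloproteinase precursors, was at 37.7, 29.9 and 27.5 CPM in Aged control and at 42.4, 244 and 26 CPM in Aged burn libraries. Aged burn 2 was high and Aged burn 3 was below every control, so the groups overlapped. The log2 difference of 1.72 (SE 0.82, edgeR adjusted p = 0.166) was 0.11 without Aged burn 2. Fibroblast and stromal markers (12 genes, none at 0) summed to 4738 to 5720 CPM in Aged control and to 6082, 14418 and 5209 CPM in Aged burn 1, 2 and 3, with 3 called higher and 1 lower. In Adult control they summed to 5593 to 7711 and in Adult burn to 5733 to 6170 CPM. Their part in the levels of the stromal enzymes was not tested.

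The calls in aged mice depended on which libraries were in the fit. Leaving out Aged burn 1, or any 1 of the 3 Aged control libraries, left 0 of the 10 genes called by edgeR, with 8, 7, 6 and 6 of them at an unadjusted p under 0.05. Leaving out Aged burn 2 or Aged burn 3 left 7 called. The calls over all genes moved as well, from 2534 with every library in the fit. They were 872 without Aged burn 1, and 575, 410 and 0 without Aged control 1, 2 and 3. Without Aged burn 2 they were 3265 and without Aged burn 3 they were 5743. With RLE size factors or upper quartile scaling 3 of the 10 were called, namely Mmp12, Mmp19 and Timp1 (2519 and 2483 of all genes). DESeq2 called 6 of the 10 and 4874 of all genes.

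Burn in adult mice gave no call among the 10 genes. Of these, 9 had counts enough to be tested and Mmp8 did not. The edgeR test called 0 of the 9 and had 0 at an unadjusted p under 0.05, and DESeq2 and limma-voom called 0. Of all 14600 genes tested, edgeR called 0.0411%. The median log2 difference of the 9 was -0.35, beside -0.04 over all genes tested, with 3 above 0 and 6 below.

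Mmp19 was the 1 gene of the 9 whose adult groups did not overlap, and it was higher after burn. Of all genes 10.2% did not overlap, 6.77% higher and 3.42% lower. It was at 44.3, 77 and 74.3 CPM in Adult control and at 78.7, 80.4 and 98.6 CPM in Adult burn libraries. The highest control lay just under the lowest burned library. The log2 difference was 0.39 (SE 0.23, edgeR adjusted p = 0.788).

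Mmp12 split the burned adults. It was at 58.1, 38.3 and 61.7 CPM in Adult control and at 5.52, 3.83 and 64.6 CPM in Adult burn libraries. Adult burn 1 and 2 were below every control and Adult burn 3 was above them. The log2 difference of -1.11 (SE 1.03, edgeR adjusted p = 0.797) was -3.49 without Adult burn 3, with an edgeR adjusted p of 0.189. Macrophage markers were at 956, 2112 and 1974 CPM in Adult burn 1, 2 and 3. Markers of dividing cells (6 genes) were at 14, 15 and 59.6 CPM in these libraries and at 61.9, 16.8 and 40.1 CPM in Adult control 1, 2 and 3. The part of either marker list in the level of Mmp12 was not tested.

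Timp1 was at 1.19, 2.52 and 6.38 CPM in Adult control and at 1.6, 1.19 and 9.62 CPM in Adult burn libraries. Library 3 was the highest of both groups, and the groups overlapped. The log2 difference was 0.30 (SE 0.94, edgeR adjusted p = 0.928), and it was -1.26 without Adult burn 3 and 1.16 without Adult control 3. Timp2 was at 481, 348 and 603 CPM in Adult control and at 391, 433 and 304 CPM in Adult burn libraries, a log2 difference of -0.35 (SE 0.26, edgeR adjusted p = 0.788). Timp3 lay between 178 and 296 CPM in all 6 adult libraries, with a log2 difference of -0.14 (SE 0.23, edgeR adjusted p = 0.864).

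The other enzymes overlapped between the adult groups. Mmp2 was at 153, 180 and 308 CPM in Adult control and at 143, 189 and 121 CPM in Adult burn libraries. Mmp3 was at 25.4, 59.9 and 141 against 44.9, 60.1 and 56.2 CPM, and Mmp14 at 100, 96 and 186 against 71.8, 117 and 103 CPM. For these 3 stromal enzymes Adult control 3 was the highest adult library. Mmp9 was at 25.5, 50.8 and 33 against 36.6, 72.5 and 23.4 CPM. The log2 differences of these 4 lay between -0.50 (Mmp2, SE 0.31) and 0.27 (Mmp9, SE 0.45). Mmp8 had 3, 1 and 66 reads in Adult control and 0, 9 and 14 reads in Adult burn libraries, a ratio of 0.436 (95% interval 0.26 to 0.707, counting error only) that rests on Adult control 3.

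**Figure D4:**
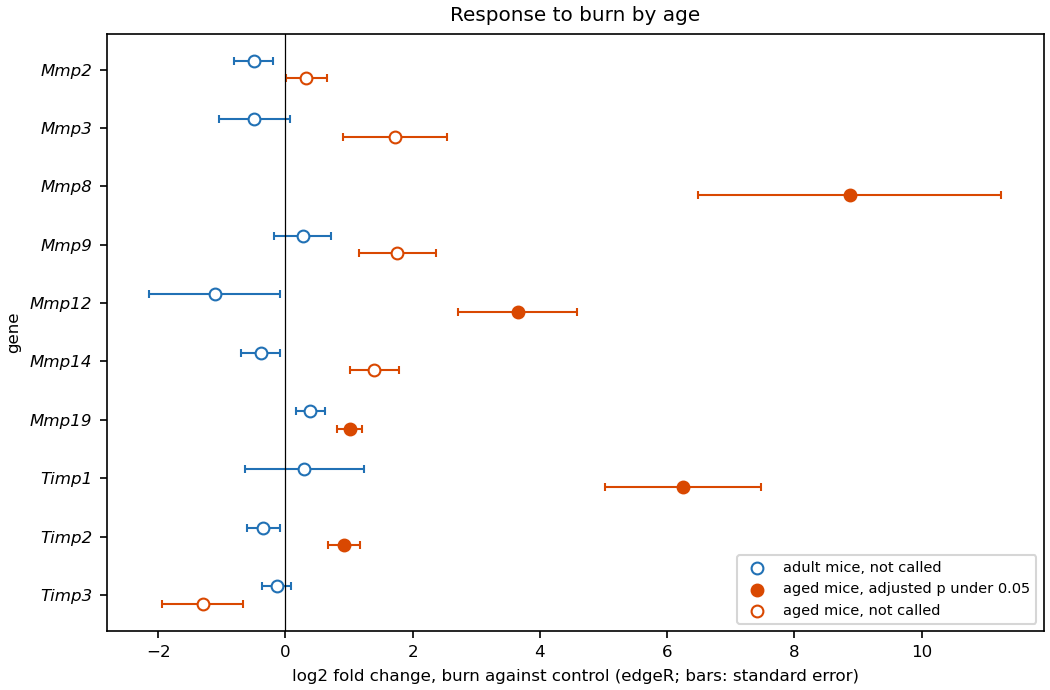
Log2 fold change of burn against control in adult and aged mice for each gene, with bars of 1 standard error; filled points have an edgeR adjusted p under 0.05, and Mmp8 was not tested in adult mice. The aged estimate lies above the adult one for every gene tested in both except Timp3, at -1.30 against -0.14.

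The responses of the 2 ages were compared by fitting all 12 libraries together with a mean for each group. The response of Timp1 was higher in aged than in adult mice by 5.93 on the log2 scale (SE 1.60, edgeR adjusted p = 0.0408), and that of Timp2 by 1.26 (SE 0.36, edgeR adjusted p = 0.04821). These 2 of the 10 genes were called, both higher in aged mice, beside 11.9% of all genes tested (9.64% higher and 2.22% lower). For Timp2 the estimates within each age had opposite signs, 0.92 in aged and -0.35 in adult mice.

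The other 8 genes missed the threshold. Their differences in response were 10.22 for Mmp8 (edgeR adjusted p = 0.055), 4.74 for Mmp12 (SE 1.52, 0.0628) and 1.78 for Mmp14 (SE 0.54, 0.0556), and for Mmp2, Mmp3, Mmp9, Mmp19 and Timp3 the edgeR adjusted p was 0.172 to 0.274. Mmp19, called in aged and not in adult mice, differed in response by 0.62 (SE 0.33, edgeR adjusted p = 0.2), so its responses were not shown to differ. The median of the 10 was 1.63, beside 0.05 over all genes. Without Aged burn 2 no gene of the 10 was called by edgeR (5 at an unadjusted p under 0.05): the difference was 4.13 for Timp1 (edgeR adjusted p = 0.089) and 1.03 for Timp2 (edgeR adjusted p = 0.0946). Without Adult control 3, whose Timp1 and Timp2 were the highest among the adult controls, the values were 5.07 (edgeR adjusted p = 0.0601) and 1.05 (edgeR adjusted p = 0.0689). Leaving out Aged burn 1, Adult burn 1, Adult burn 2 or any 1 Aged control also ended both calls, and leaving out Adult control 1 or Adult burn 3 ended that of Timp2. Over all libraries left out in turn the difference lay between 4.13 and 7.49 for Timp1 and between 1.03 and 1.44 for Timp2.

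Untreated aged and adult mice were compared in the same model. None of the 10 genes passed the edgeR test (0 called, with 3 at an unadjusted p under 0.05, and 0 by DESeq2 and by limma-voom), and 0.424% of all genes did (0.238% higher and 0.186% lower in aged mice). The estimates were below 0 for 9 genes and above 0 for Timp3, with a median of -1.0 beside -0.06 over all genes. The groups did not overlap for 4 genes that were lower in aged controls, Mmp2, Mmp9, Mmp12 and Mmp14, and for 1 that was higher, Timp3, where 33.0% of all genes did not overlap (15.6% lower and 17.4% higher).

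Timp3 was at 184, 296 and 192 CPM in Adult control and at 421, 478 and 506 CPM in Aged control libraries. The Aged control libraries were above all 9 others. The log2 difference was 1.06 (SE 0.52, edgeR adjusted p = 0.219), and it passed without Aged burn 2 in the fit (1.07, edgeR adjusted p = 0.0379). Mmp14 was at 100, 96 and 186 CPM in Adult control against 63.8, 60 and 64.1 CPM in Aged control libraries, a log2 difference of -1.02 (SE 0.38, edgeR adjusted p = 0.134). Adult control 3 widened this gap, which was -0.64 without it.

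Ordered by group mean, Timp1 ran from Aged control (1.23 CPM) through Adult control (3.36) and Adult burn (4.14) to Aged burn (92.8 CPM), and only the last step had no overlap between neighbours. For Mmp12 the order was Aged control, Adult burn, Adult control and Aged burn, again with a gap at the last step alone. Aged control was the lowest group for 9 of the 10 genes and the highest for Timp3. For Mmp2, Mmp8 and Timp2 every pair of neighbouring groups overlapped. The remaining genes had 1 gap each: below Adult burn for Mmp3 and Mmp14, below Adult control for Mmp9, between Adult control and Adult burn for Mmp19, and between Adult control and Aged control for Timp3.

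Mmp3, Mmp8 and Mmp12 belong to a run of 10 metalloproteinase genes over 427.1 kb of chromosome 9 (chr9:7272514-7699585), in the order Mmp13, Mmp12, Mmp1b, Mmp3, Mmp1a, Mmp10, Mmp8, Mmp27, Mmp20 and Mmp7. Mmp12 had 37814 reads over the 12 libraries, Mmp3 had 26266, Mmp27 had 1537, Mmp8 had 1128 and Mmp13 had 711. Mmp20, the enzyme of tooth enamel, had no read, and Mmp7 had 12, all in Adult control 1. Neighbours on the chromosome thus differed widely in their reads.

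Mmp10, or stromelysin 2, lies between Mmp3 and Mmp8 in this run. It had 0 reads in the Aged control libraries and 135 in the Aged burn libraries, at 1.04, 2.19 and 0.279 CPM. With the reads of each group pooled, that is at least 50-fold higher against a floor of 3 reads over the group. This value takes in counting error only and is no bound for a single library. Mmp10 was called (edgeR adjusted p = 0.0343). Mmp13, a collagenase, was at 0.486 CPM on average in Aged control and 4.85 CPM in Aged burn (log2 difference 3.32, edgeR adjusted p = 0.0702), and Mmp27 at 1.79 and 5.21 CPM (1.55, edgeR adjusted p = 0.0938). In Aged burn 2, Mmp3, Mmp8, Mmp10, Mmp12, Mmp13 (9.66 CPM) and Mmp27 (9.64 CPM) each had their highest level of the 12 libraries. Mmp1a and Mmp1b had 3 and 9 reads, all in Aged burn 2, too few to test.

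**Figure D5:**
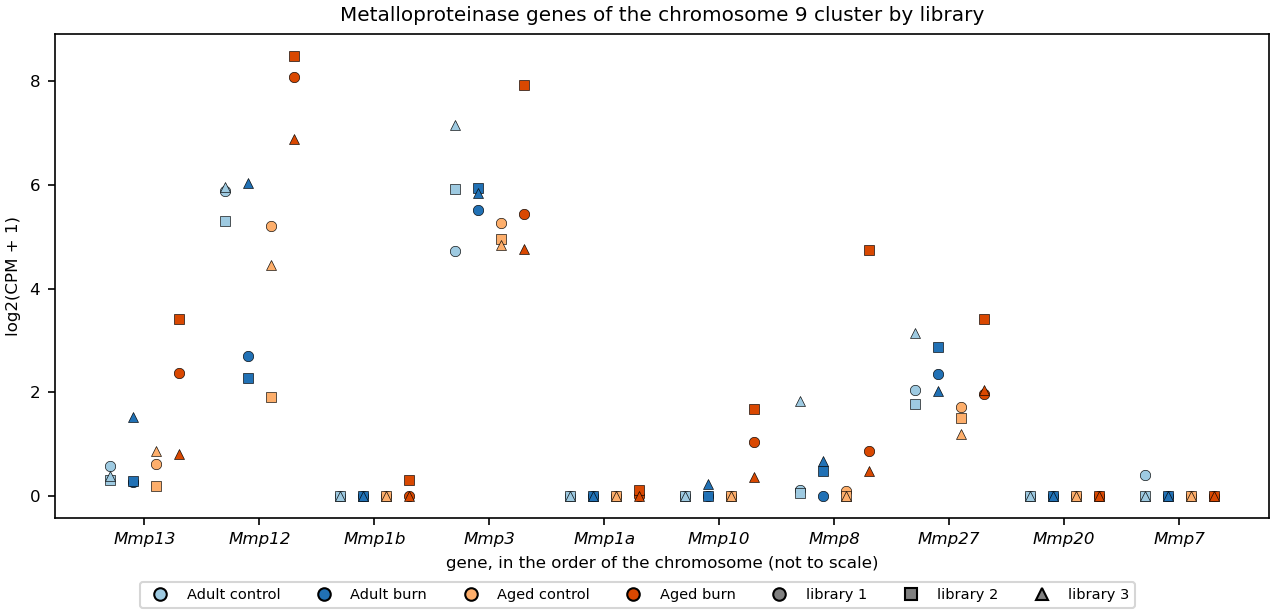
Level of the 10 metalloproteinase genes of the chromosome 9 cluster in each library, as log2(CPM + 1), in their order along the chromosome and not to scale. Mmp12 and Mmp3 have the most reads, Mmp20 has no read, and Aged burn 2 is the highest library for Mmp13, Mmp12, Mmp3, Mmp10, Mmp8 and Mmp27.

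The pattern over the 12 libraries was also compared with that of 11165 genes with a mean of at least 5 CPM, by Pearson correlation of log2(CPM + 1). These are descriptions over 12 libraries that share 4 groups, and the values without Aged burn 2 (11 libraries) follow in brackets. Most like Mmp12 were Itgax, the integrin of CD11c+ cells, at 0.941 (0.935), Rnf128 at 0.941 (0.922) and Clec7a, the beta-glucan receptor of myeloid cells, at 0.938 (0.925). Most like Mmp8 were Il1b at 0.984 (0.901), Hdc, which makes histamine, at 0.981 (0.890), and Casp4 at 0.974 (0.835). Mmp14 went most closely with Aif1, a macrophage gene, at 0.972 (0.947), and Mmp19 with Plin2, the lipid droplet coat protein, at 0.975 (0.970). Timp1 went with Skap2, Cstb and Azin1 at 0.983 to 0.985, and Timp3 with Lrba, Ebf1 and Egflam at 0.981 to 0.984.

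Mmp2 reached 0.887 (0.871) with Aebp1, Mmp3 0.933 (0.858) with Fgl2, Mmp9 0.925 (0.860) with Tbc1d13 and Timp2 0.943 (0.915) with Pgap6. Among the 10 genes themselves, Timp1 went with Mmp19 at 0.88 (0.83) and with Mmp12 at 0.82 (0.80). Mmp14 went with Timp2 at 0.88 (0.81) and against Timp3 at -0.89 (-0.78). The pair of Mmp3 and Timp1 was at 0.64 and fell to 0.20 without Aged burn 2, and Mmp9 and Timp1 fell from 0.56 to 0.07.

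Other genes of the same proteolytic system were read from lists of 86 genes, 73 of them tested in aged mice. In aged mice 29 were called higher and 2 lower with burn, beside 13.7% and 3.03% of all genes tested. In adult mice edgeR called 0 of 69 tested in either direction, beside 0.0411% of all genes. The difference between the responses was called for 21 of 74, all higher in aged mice, beside 9.64% of all genes called higher. These calls too depended on the libraries: without Aged control 3 edgeR called 0 of all genes for burn in aged mice, with 4227 at an unadjusted p under 0.05. Of 9 tested other metalloproteinases, Mmp10 was the 1 called, and of 5 tested other inhibitors Tfpi2, a serine proteinase inhibitor, was. Counts of this size are near the 16.7% of all genes called. Tfpi2 rose from 3.58 ± 1.43 to 15 ± 5.84 CPM (log2 2.07, SE 0.42, edgeR adjusted p = 0.0248).

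Plasmin activates several metalloproteinase precursors, and 3 of 9 tested genes of its activation were called higher in aged mice. Plau (urokinase) rose from 53.3 ± 4.76 to 240 ± 133 CPM (log2 2.18, edgeR adjusted p = 0.0255), its receptor Plaur from 3.17 ± 0.313 to 30.4 ± 16.6 CPM (3.26, edgeR adjusted p = 0.00975) and Plat from 15.9 ± 2.85 to 31 ± 7.83 CPM (0.96, edgeR adjusted p = 0.0386). Of the 8 genes that activate, anchor or take up metalloproteinases, Furin, Cd44, Itgav and Itgb3 were called higher and Pcsk6 lower. Cd44, the hyaluronan receptor that can hold Mmp9 at the cell surface, rose from 14.4 ± 4.71 to 200 ± 106 CPM (log2 3.79, SE 0.50, edgeR adjusted p = 0.00767). Itgb3 rose by 2.06 and Itgav by 1.09 on the log2 scale.

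Of 7 ADAM proteinases, which shed proteins from the cell surface, 5 were called higher in aged mice. Adam8, an enzyme of myeloid cells, was at 8.35, 1.81 and 4.02 CPM in Aged control and at 446, 502 and 178 CPM in Aged burn libraries. The groups did not overlap, and Aged burn 3 was the lowest of the burned libraries. Adam8 rose by 6.32 on the log2 scale (SE 0.75, edgeR adjusted p = 0.00635). Adam17, the shedding enzyme of tumour necrosis factor, rose from 32.1 ± 2.86 to 99 ± 39 CPM (log2 1.62, edgeR adjusted p = 0.0156), and Adam10 rose by 1.14. Of 16 tested ADAMTS proteinases 5 were called higher and 1, Adamts5, lower. Adamts15 rose by 2.13, Adamts4 by 3.18 and Adamts12 by 0.69 on the log2 scale.

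Of 9 cathepsins, the proteinases of lysosomes, 8 were called higher in aged mice, with Ctss, known from antigen-presenting cells, from 42.7 ± 21.6 to 766 ± 435 CPM (log2 4.17, SE 0.65, edgeR adjusted p = 0.0114). Ctsa and Ctsz rose by 1.36 and 1.37. Of 10 matrix substrates 2 were called higher, a share near the 13.7% of all genes called higher: Fn1 (fibronectin) from 88.9 ± 25.6 to 599 ± 385 CPM (log2 2.75, SE 0.51, edgeR adjusted p = 0.0193) and Col1a1 from 528 ± 66.8 to 2114 ± 1201 CPM (2.00, SE 0.44, edgeR adjusted p = 0.0298). The median log2 difference was 1.85 for the cathepsins, 1.58 for the ADAM proteinases, 0.45 for the matrix substrates and -0.01 over all genes tested. Col1a1 also stands in the fibroblast marker list, and the macrophage and neutrophil sums given above apply to these lists too.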

How the data were processed

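Polyadenylated RNA of adipose tissue was sequenced from 12 libraries; per the labels' protocols, Trizol was used for extraction and the library kit was directional. The submitters' processing notes name HISAT2, featureCounts, cutadapt, FastQC and MultiQC, and the build mm10. Tool versions, the annotation and the strand setting: not given in the sources used here. Deposited values are raw counts per gene, in a table for adult and a table for aged mice. Both were joined on Entrez identifier; 25275 of 27179 matched a RefSeq symbol (GRCm38.p6), and the rest held 0.366 to 0.76% of counts.

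The test was edgeR 4.0.16 in R 4.3.3 (quasi-likelihood F test, TMM scaling, low counts removed with filterByExpr by group), with Benjamini-Hochberg adjustment over all genes tested and a threshold of 0.05. Burn was fitted on the 6 libraries of its age, the difference between responses and the control comparison on all 12. Standard errors were taken from F, as the size of the log2 fold change over its square root. Exon lengths are unions of GENCODE M21 transcripts paired with RefSeq transcripts. Steps were tested on simulated data. Libraries of a group differed beyond sampling noise (chi-square per degree of freedom at least 31.3). The depth of 25231506 to 46531070 counts leaves Mmp8 at 0 to 66 reads outside the Aged burn group.

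The members and gene lists were chosen with earlier results of these data known. All 10 members were named, with the 3 called genes of smallest adjusted p per related list (others only to fill out a count), the most like genes and the marker sums. Genes outside this rule, such as cluster neighbours and overlapping genes, were named for their position. Alternatives were RLE and upper quartile scaling, no count filter, DESeq2 1.42.0, limma-voom (limma 3.58.1), a block for the replicate number, fits on more or fewer groups, and every library left out in turn.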

Additional observations from a re-analysis of the deposited data

Results flagged for a closer look

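The response to burn differed between aged and adult mice for 2 of the 10 metalloproteinases and inhibitors by the test of the difference itself, which is what marked them: Timp1 by 5.93 and Timp2 by 1.26 on the log2 scale, both higher in aged mice.

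The same test marked 16 of the related genes named above, all with the higher response in aged mice. Those genes were named for a small adjusted p of burn in aged mice, and the same aged libraries enter this difference. The count of 16 is therefore no separate support. Over all related genes tested, chosen or not, 21 of 74 were called, beside 11.9% of all genes. Mmp10, Plat and Adamts12, named by the same rule, were not marked. Among the proteinases the log2 difference was 1.21 for Adam10, 1.75 for Adam17, 5.77 for Adam8, 2.46 for Adamts15 and 3.46 for Adamts4. It was 1.51 for Ctsa, 4.83 for Ctss and 1.25 for Ctsz. For plasminogen activation it was 2.23 for Plau and 4.43 for Plaur, and for the inhibitor Tfpi2 it was 1.88. Among the anchoring genes it was 4.20 for Cd44, 1.01 for Itgav and 3.48 for Itgb3, and among the matrix substrates 2.43 for Col1a1 and 3.24 for Fn1. Age, table and burn size cannot be told apart in these differences. Without Adult burn 1, Adult burn 2, Aged control 2 or Aged control 3, and with the replicate number as a block, edgeR called 0 of all genes for this difference (4273, 4561, 4353, 4489 and 4480 at an unadjusted p under 0.05), so each of these calls ended there.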

How the results depend on the processing

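Only 3 libraries a group, near-zero counts of Mmp8 and a spread led by Aged burn 2 limit these results. In aged mice the 5 members called became 3 with RLE size factors, 3 with upper quartile scaling and 2 with limma-voom, and 0 to 7 with each library left out in turn. For the difference between the responses the 2 called became 1 with RLE, 1 with upper quartile scaling, 1 without a count filter, 1 with limma-voom, 4 with DESeq2, 0 without Adult control 1 and Adult burn 1 together, and 0 to 5 with each library left out. For the controls 0 became 1 without Aged burn 2 (range 0 to 1), and for burn in adult mice it stayed 0 in every setting run.

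With each library left out, signs changed in genes that were not called: in adult mice Mmp3 (-0.92 to 0.33), Mmp9 (-0.28 to 0.59), Timp1 (-1.26 to 1.16) and Timp3 (-0.28 to 0.11), in aged mice Mmp2 (-0.09 to 0.57), and between controls Mmp19 (-0.29 to 0.08). The cause was not tested.

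Deviations of same-numbered libraries from their group means correlated at 0.015, -0.002 and 0.234 in adult and -0.117, -0.211 and -0.066 in aged mice. Libraries of different number gave -0.202 to 0.168 in adult and -0.277 to 0.273 in aged mice. With 3 libraries a group, these values cannot show whether the replicate numbers pair the libraries. With the replicate number as a block, 1 member (Mmp19) was called in aged mice and 0 for the difference, and fewer residual degrees of freedom remained.

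Over all genes the calls for burn in adult mice were 6, and 63 with DESeq2, 14 with 12 libraries in the fit, 0 with the block, 0 without Adult control 1 and Adult burn 1, and 0 to 5 with a library left out. In aged mice they were 2534, and 4874 with DESeq2, 917 with the block and 0 to 5743 with a library left out. For the difference they were 1845, and 3730 with DESeq2, 833 with limma-voom, 0 with the block, 0 without the same 2 adult libraries and 0 to 4039 with a library left out. For the controls they were 66, and 2147 with DESeq2, 8 with the block and 0 to 2011 with a library left out.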
